A study of Homo sapiens with 12 samples.

Results

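The comparison described here sets LM2 cells carrying an EZH2 shRNA against LM2 cells carrying a scramble shRNA, 6 of the 12 RNA-seq libraries of the study, 3 in each group. LM2 is an established line derived from MDA-MB-231 human breast cancer cells by selection for spread to the lung. Both groups were made by transduction of the same line, and each short hairpin RNA (shRNA) was the one agent named for its group. The other 6 libraries, 3 with a scramble siRNA and 3 with a ZRANB1 siRNA, entered the statistical model to estimate the spread and are not otherwise described. The labels name the EZH2 shRNA with no sequence, and give no time after transduction and no word on whether each library had its own culture, so the p-values reflect no more than the spread among samples, possibly a technical one. All genes of the deposited table were taken, those with values below 1 FPKM included. FPKM is a count of fragments scaled by transcript length and by the mapped fragments of the library, so levels of different genes can be set side by side, while the number of fragments behind a value was unknown. The 3 values of a group stood sorted as text in each row, so they are given from lowest to highest and cannot be traced to a library.

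EZH2 is the catalytic subunit of Polycomb repressive complex 2 (PRC2), which methylates lysine 27 of histone H3 and so keeps many developmental genes silent. EED and SUZ12 are the other core subunits, EZH1 is a paralogous enzyme that can take the place of EZH2, and PRC1 complexes act on the marked chromatin. In breast cancer EZH2 is often abundant, and in cells in general its loss is best known for raising genes that PRC2 holds silent. The comparison asked which transcripts differ when EZH2 is lowered.

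EZH2 itself stood at 34.2, 35.6 and 36.3 FPKM with the scramble shRNA and 16.1, 16.1 and 17.3 FPKM with the EZH2 shRNA. The groups did not overlap, and the mean with the EZH2 shRNA was 46.6% of the scramble mean (log2 fold change -1.06, SE 0.067, adjusted p = 1.79e-05, limma). The two-sided exact permutation test on 3 against 3 values gave p = 0.1, the smallest it can give. Of 24556 gene symbols, 14709 averaged 0.1 FPKM or more across all 12 values and were fitted. At an adjusted p below 0.05, 843 of them were called, which was 5.73% of the genes fitted: 428 higher (2.91%) and 415 lower (2.82%). A change of at least 2-fold on the log2(FPKM + 1) scale was found for 41 called genes (0.279% of the genes fitted), 15 higher and 26 lower, so most called changes were small. By mean level, between 0.1 and 1 FPKM 37 of 2638 fitted genes rose and 52 fell (3.37% called). Between 1 and 10 FPKM 211 of 4911 rose and 138 fell (7.11%). Between 10 and 100 FPKM 165 of 6021 rose and 171 fell (5.58%), and at 100 FPKM or more 15 of 864 rose and 54 fell (7.99%). The median log2 fold change was -0.01 over all genes fitted and -0.10 in that highest class.

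The line's labelled identity was checked with marker genes. All 6 markers of mesenchymal-type basal breast lines were abundant, with scramble means from 206 FPKM for MSN to 2836 FPKM for VIM, and MSN alone of these was called, higher. Of 11 luminal breast markers, PGR was listed at 0 in all 6 values and ESR1 was below 0.05 FPKM in each group's mean, while the keratin genes KRT18 and KRT8 and the factor gene XBP1 stood at 272, 188 and 74.8 FPKM in the scramble mean; GATA3 and SPDEF fell. Of 6 epithelial junction markers, GRHL2 was listed at 0 throughout and CDH1 stood below 0.05 FPKM in both means, while CLDN7 had means of 11.8 and 10.1 FPKM and EPCAM 3.53 and 4.34 FPKM, neither called. Summed over each list, 7 blood markers gave 5.33 and 4.29 FPKM, 4 endothelial markers 2.06 and 1.77 FPKM and 6 fibroblast markers 24.95 and 19.9 FPKM with the scramble and the EZH2 shRNA, the last sum nearly all COL1A1. Limma called 0 of the 7 fitted members of these 3 lists (0 higher and 2 lower at an unadjusted p below 0.05). In bulk RNA, fewer cells that express a gene and less of its RNA per cell cannot be told apart.

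**Figure D1:**
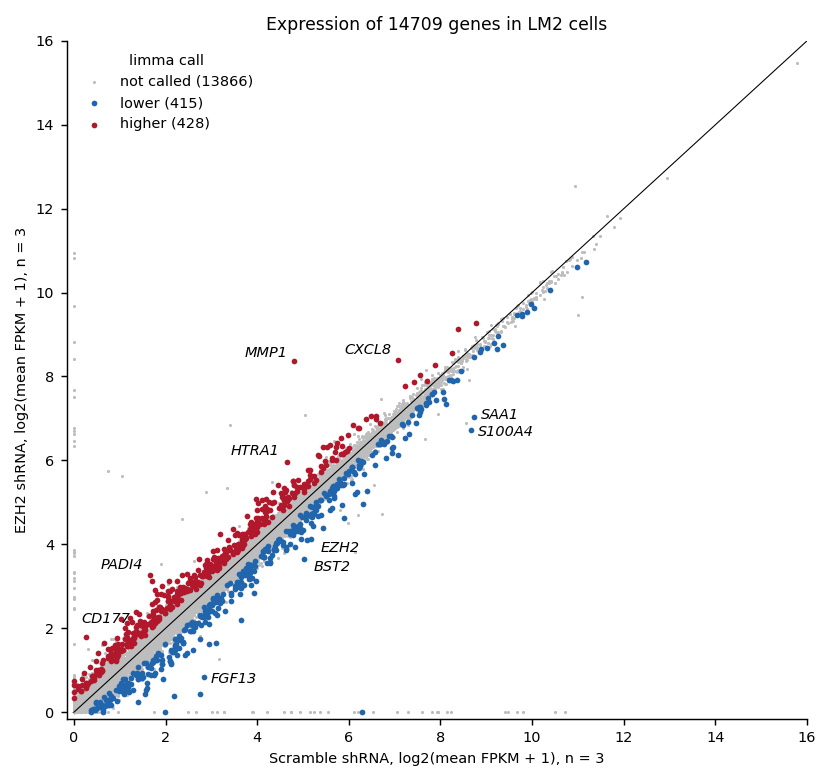
Mean expression of the 14709 fitted genes, log2(mean FPKM + 1), with the scramble shRNA (horizontal, n = 3) and with the EZH2 shRNA (vertical, n = 3); red points were called higher (428), blue points lower (415) and grey points were not called. MMP1 lies far above the diagonal line of equal expression and FGF13, S100A4 and SAA1 far below it, while most called genes lie close to it, and points on an axis have a mean at or near 0 in 1 group.

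The largest rise was that of MMP1, the interstitial collagenase, which stood at 25.4, 26.9 and 28.7 FPKM with the scramble shRNA and 317, 324 and 348 FPKM with the EZH2 shRNA. Its mean was 12.2 times the scramble mean, with no overlap (log2 fold change 3.56, SE 0.079, adjusted p = 8.14e-10). PADI4, which converts arginine in proteins to citrulline, had 1.76, 1.999 and 2.72 FPKM against 8.02, 8.32 and 9.37 FPKM (log2 fold change 1.61, SE 0.11, adjusted p = 1.90e-05). CD177, a surface glycoprotein best known from neutrophils, was low in the scramble group at 0.184, 0.188 and 0.252 FPKM against 2.09, 2.401 and 2.84 FPKM, and its mean rose by a factor of 11.7 (adjusted p = 4.17e-05). GLUL, glutamine synthetase, had 1.97, 2.26 and 2.54 FPKM against 6.83, 7.98 and 8.34 FPKM. HTRA1, a secreted serine protease, had 22.1, 24.8 and 24.97 FPKM against 59.9, 61.1 and 63.8 FPKM. All 3 EZH2 shRNA values of each of these genes lay above all 3 scramble values. CXCL8, the neutrophil chemokine interleukin-8, rose from 105, 142 and 156 FPKM to 295, 319 and 389 FPKM (log2 fold change 1.32, SE 0.17, adjusted p = 0.00122). The G1 cyclin gene CCND2 had 0.788, 1.01 and 1.31 FPKM against 3.505, 3.51 and 3.95 FPKM, and the stromelysin gene MMP3 had 1.97, 2.43 and 2.85 FPKM against 6.12, 6.37 and 7.13 FPKM. Their means were 3.53 and 2.71 times the scramble mean. The other 7 of the 15 largest rises were VIPR1, a receptor of vasoactive intestinal peptide, PI3, the elastase inhibitor elafin, TNFAIP3, a feedback inhibitor of NF-kB, DMBT1, a scavenger-receptor glycoprotein of mucosal surfaces, ANXA10, an annexin, PODXL2, a sialomucin, and TNFSF15, a TNF family ligand. Their log2 fold changes ran from 1.01 for TNFSF15 to 1.10 for VIPR1. The call of PI3 was lost in at least 1 setting tried, and those of the other genes with values given here held in every one that fitted the gene.

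Small RNA and LOC symbols were left out of the ranking of rises and falls. Among them SNORA24, a small nucleolar RNA, was at 25.9, 70.9 and 136 FPKM with the scramble shRNA and listed at 0 in all 3 values with the EZH2 shRNA, and LOC645638 had 3.38, 5.71 and 8.204 FPKM against 0, 0.449 and 0.604 FPKM; on the log2(FPKM + 1) scale both fell by more than any gene ranked, and they were named after their values were seen. Of the ranked genes the largest fall was that of FGF13, an intracellular fibroblast growth factor homologue, at 5.75, 5.99 and 6.77 FPKM with the scramble shRNA and 0.735, 0.7797 and 0.886 FPKM with the EZH2 shRNA. Its mean was 7.705 times lower, and no values overlapped (log2 fold change -1.99, SE 0.11, adjusted p = 4.60e-06). S100A4, a calcium-binding protein linked to metastasis, fell from a high level, with 393, 396 and 427 FPKM against 87.04, 108 and 120.5 FPKM (log2 fold change -1.95, SE 0.11, adjusted p = 4.60e-06). COX7B2, a testis-type homologue of a cytochrome c oxidase subunit, was at 1.86, 2.205 and 4.79 FPKM with the scramble shRNA and was listed at 0 in all 3 values with the EZH2 shRNA (adjusted p = 0.000335). CYP3A5, a drug-metabolizing cytochrome P450, had 3.27, 3.41 and 3.98 FPKM against 0.0871, 0.304 and 0.556 FPKM. All 3 EZH2 shRNA values of FGF13, COX7B2 and CYP3A5 were below 1 FPKM. The acute-phase gene SAA1 had 401, 428 and 445 FPKM against 124, 126 and 142 FPKM (log2 fold change -1.70, SE 0.13, adjusted p = 3.14e-05), and a row that merges SAA2 and SAA4, SAA2-SAA2-SAA4-SAA4, had 68.8, 76.03 and 89.99 FPKM against 28.4, 29.4 and 32.9 FPKM. Reads of SAA1 and SAA2, which are nearly the same in sequence, may be split wrongly between these rows. CST7 and CST6, both cystatin-type inhibitors of cysteine proteases, had 6.498, 8.07 and 8.12 FPKM against 1.81, 2.26 and 2.32 FPKM for CST7. The CST6 values were 1.34, 1.55 and 2.05 FPKM against 0, 0.256 and 0.295 FPKM. The gelatinase gene MMP2 had 10.2, 11.8 and 12.6 FPKM against 3.53, 3.66 and 3.68 FPKM, opposite in direction to MMP1 and MMP3. BMP4, a morphogen of the TGF-beta superfamily, had 50.4, 62.04 and 62.6 FPKM against 13.9, 28.5 and 28.6 FPKM, with 1 EZH2 shRNA value well below the other two. LCN2, the iron-scavenging lipocalin, had 6.27, 6.75 and 6.99 FPKM against 1.77, 2.06 and 2.44 FPKM. ITGB4, the beta chain of the laminin-binding hemidesmosome integrin, had 71.6, 88.3 and 88.6 FPKM against 32.2, 38.7 and 41.3 FPKM. BST2, LAMP3 and MPZL2 completed the 15 largest falls so ranked, with log2 fold changes of -1.36, -1.14 and -1.10. The calls of CST6 and BMP4 were each lost in at least 1 setting tried. Those of the other ranked genes with values given here held in every one that fitted the gene. The calls of SNORA24 and LOC645638 were not followed over the settings.

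**Figure D2:**
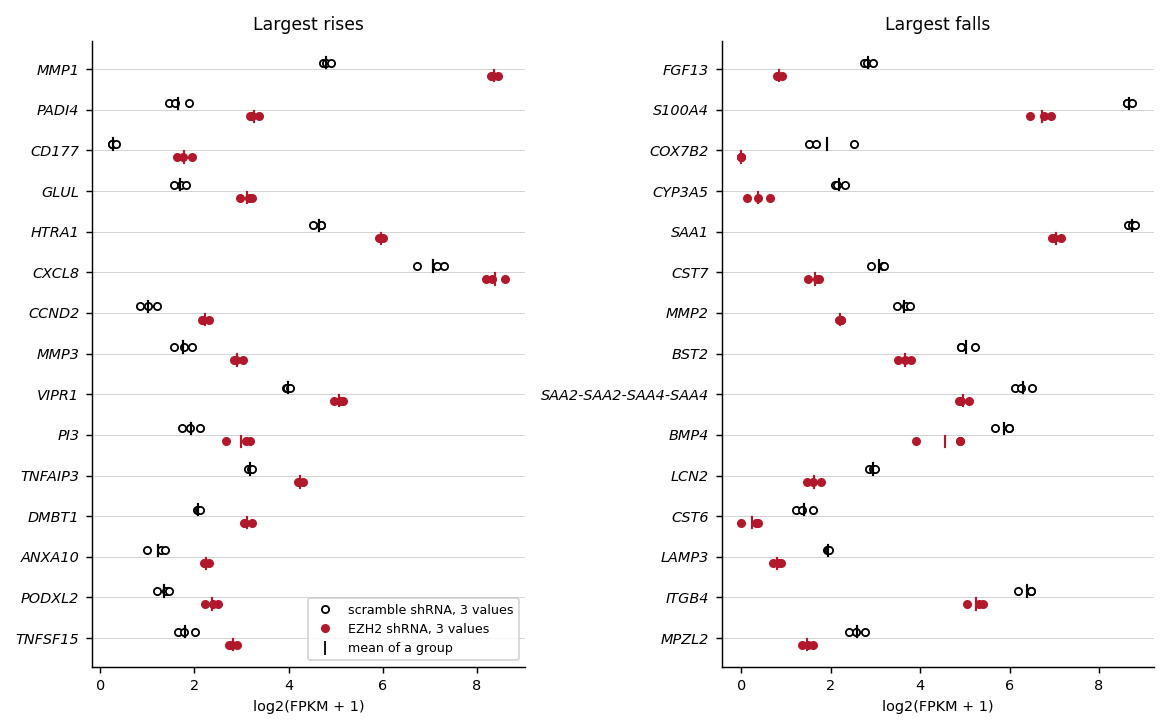
The 3 scramble shRNA values (open circles) and the 3 EZH2 shRNA values (red circles) of the 15 largest rises and the 15 largest falls, small RNA and LOC symbols left out, on a log2(FPKM + 1) scale, with a vertical tick at each group's mean. The 2 sets of circles do not overlap for any of the 30 genes, which the rule for choosing them required; MMP1 has the widest gap among the rises, and COX7B2 sits at 0 with the EZH2 shRNA.

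Most genes that were low in the scramble group were also low in the EZH2 shRNA group. A symbol was taken as low where all 3 values were below 1 FPKM, which held for 12487 symbols with the scramble shRNA and 12479 with the EZH2 shRNA, 12210 of them in both. Of the symbols low with the scramble shRNA, 42 (0.336%) had all 3 EZH2 shRNA values at or above 1 FPKM, called switched on here, and in the mirror direction 40 of those low with the EZH2 shRNA (0.321%) were switched off. These counts were close in size. Switched-on genes reached only modest levels: their median mean was 1.36 FPKM, 4 had a mean of at least 2 FPKM, and 19 of the 42 were called by limma. Among the 40 switched-off genes the median scramble mean was 1.45 FPKM, 9 had a scramble mean of at least 2 FPKM, and 30 were called. Since the values chose these genes, their counts are a description. With the fit, 2640 genes low in the scramble group could be tested, and 53 (2.01%) rose while 28 (1.06%) fell; choosing by low scramble values favours rises, and of 2632 fitted genes low with the EZH2 shRNA, 71 (2.7%) fell. Of the 53, 22 stayed below 1 FPKM in all 3 EZH2 shRNA values, and the highest mean, that of CD177, was 2.44 FPKM. There were 6592 symbols listed at 0 in all 6 values. Another 42 were listed at 0 in all 3 scramble values and above 0 in all 3 EZH2 shRNA values, against 43 in the mirror direction. With a filter at a mean of 1 FPKM, 11 rather than 53 low genes rose and 11 rather than 71 fell, since that filter leaves few low genes to test, and with the 6 values of the compared groups alone the counts were 14 and 18.

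Among the genes switched on, CD177 had the largest gain. CUZD1-FAM24B, a row for a readthrough of neighbouring genes, followed with 0.356, 0.648 and 0.751 FPKM against 1.75, 2.12 and 2.58 FPKM. GOLGA7B, a homologue of a palmitoyl transferase partner, had 0.417, 0.441 and 0.446 FPKM against 1.54, 1.69 and 1.75 FPKM and the smallest adjusted p among low genes, 2.54e-05. Its values lay within a narrow range in each group, and the ranges were far apart. The receptor genes PTPRB and TIE1, better known from vascular endothelium, had 0.783, 0.849 and 0.965 FPKM against 1.69, 2.07 and 2.33 FPKM for PTPRB. The TIE1 values were 0.4495, 0.543 and 0.577 FPKM against 1.05, 1.24 and 1.498 FPKM. The 4 endothelial markers of the check above differed in direction between the scramble and the EZH2 shRNA means. PECAM1 had 1.57 and 1.09 FPKM, VWF 0.0416 and 0.0411 FPKM, KDR 0.428 and 0.597 FPKM and CDH5 0.0148 and 0.0393 FPKM. Only PECAM1 and KDR were fitted, and neither was called. The part of endothelial cells in these values was not tested. RORB, an orphan nuclear receptor, had 0.605, 0.817 and 0.847 FPKM against 1.47, 1.53 and 1.95 FPKM. ZNF521, a zinc finger factor of progenitor cells, had 0.676, 0.7903 and 0.848 FPKM against 1.402, 1.55 and 1.69 FPKM. LEFTY1, an antagonist of NODAL signalling, had 0.147, 0.2099 and 0.448 FPKM against 1.01, 1.09 and 1.24 FPKM. All of these scramble values were below 1 FPKM by the choice of genes, and no EZH2 shRNA value of them reached 3 FPKM. PPM1E, a protein phosphatase, and GAREM, an adaptor of growth factor receptors, had 0.577, 0.616 and 0.837 FPKM against 1.47, 1.71 and 2.299 FPKM for PPM1E. The GAREM values were 0.613, 0.743 and 0.957 FPKM against 1.77, 1.8996 and 1.99 FPKM. LINC00622, a long intergenic RNA, RASEF, a small GTPase, SYNDIG1, a synaptic membrane protein, PLA2G4D, a phospholipase, LGALSL, a galectin-like protein, and PRR16 were the others among the 15 largest gains of called genes, with log2 fold changes from 0.49 for RASEF to 0.60 for PRR16. The calls of CUZD1-FAM24B, GOLGA7B, PTPRB, ZNF521 and GAREM held in every setting that fitted the gene, and those of the other genes with values given here were each lost in at least 1.

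Several low genes rose without passing 1 FPKM in every value. TMPRSS15, the intestinal protease enteropeptidase, was listed at 0 in 2 scramble values and at 0.0165 FPKM in the third, against 0.403, 0.553 and 0.778 FPKM with the EZH2 shRNA (adjusted p = 0.00156). NUDT10, a diphosphoinositol polyphosphate phosphohydrolase, was listed at 0 in all 3 scramble values and stood at 0.306, 0.328 and 0.581 FPKM with the EZH2 shRNA. MYH16, a myosin heavy chain row, had 0.04197, 0.157 and 0.198 FPKM against 0.616, 0.724 and 0.818 FPKM. PDE3A, a cyclic nucleotide phosphodiesterase, had 0.0397, 0.0422 and 0.106 FPKM against 0.42996, 0.438 and 0.535 FPKM, SIRPA, the receptor of CD47, 0.106, 0.176 and 0.201 FPKM against 0.683, 1.01 and 1.05 FPKM. PRKG1, a cGMP-dependent kinase, had 0.356, 0.366 and 0.454 FPKM against 0.818, 0.8503 and 0.966 FPKM. In each case the EZH2 shRNA values lay above all scramble values, at levels close to the lower end of the table. TMPRSS15 and NUDT10, at or near 0 with the scramble shRNA, could enter the fit through their EZH2 shRNA values, so their calls are a description. The call of NUDT10 was lost in at least 1 setting tried, and those of the other genes with values given here held in every one that fitted the gene.

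Several switched-off genes stood well above 1 FPKM with the scramble shRNA. Besides FGF13, CYP3A5 and COX7B2, LAMP3, a lysosomal membrane protein of dendritic cells, went from 2.77, 2.81 and 2.901 FPKM to 0.631, 0.757 and 0.845 FPKM, narrow ranges that were far apart. ALDH3A1, an aldehyde dehydrogenase, had 1.21, 1.87 and 2.66 FPKM against 0.248, 0.291 and 0.532 FPKM, and the type III interferon gene IFNL1 had 1.05, 1.59 and 3.26 FPKM against 0.178, 0.497 and 0.629 FPKM. MAGEC1, a cancer-testis antigen, had 1.7004, 2.002 and 2.31 FPKM against 0.3101, 0.492 and 0.665 FPKM. CMKLR1, the chemerin receptor, had 1.88, 2.07 and 2.14 FPKM against 0.481, 0.649 and 0.767 FPKM. SPDEF, an ETS factor of luminal epithelium, had 1.85, 1.95 and 2.83 FPKM against 0.6802, 0.954 and 0.961 FPKM. No EZH2 shRNA value reached the scramble range for any of them, which the rule for switched-off genes required. GBP5, an interferon-induced GTPase, had 1.65, 1.93 and 1.98 FPKM against 0.723, 0.785 and 0.859 FPKM, IL20RB, a receptor chain of the IL-20 family, 1.49, 1.96 and 1.97 FPKM against 0.538, 0.845 and 0.939 FPKM. ZBTB32, a zinc finger repressor, had 1.14, 1.55 and 1.66 FPKM against 0.415, 0.4404 and 0.502 FPKM. MFSD7, a membrane transporter, had 1.05, 1.18 and 1.73 FPKM against 0.316, 0.426 and 0.462 FPKM. LMO2, a transcriptional adaptor, had 1.18, 1.26 and 2.44 FPKM against 0.604, 0.775 and 0.855 FPKM. The calls of MAGEC1, CMKLR1, GBP5, ZBTB32 and LAMP3 held in every setting that fitted the gene, and those of the other genes with values given here were each lost in at least 1.

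**Figure D3:**
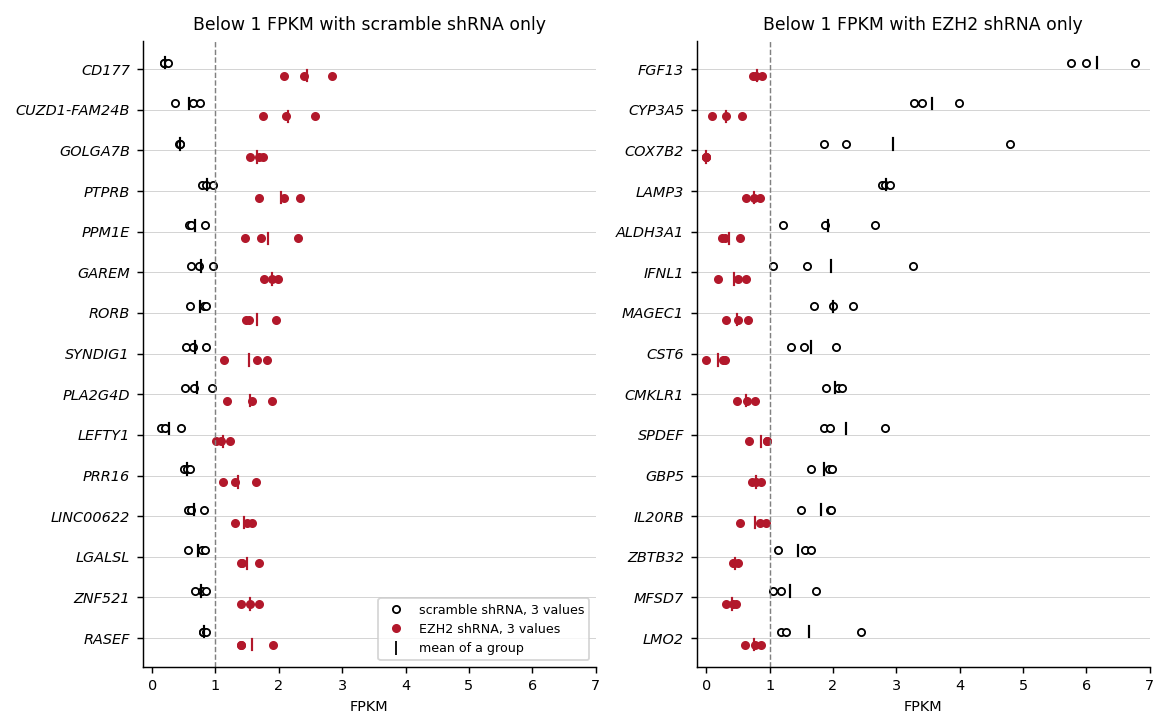
The 3 scramble shRNA values (open circles) and 3 EZH2 shRNA values (red circles), in FPKM, of the 15 called genes with the largest gain among those switched on (left) and the largest loss among those switched off (right), small RNA and LOC symbols left out; the dashed line marks 1 FPKM and ticks mark group means. No value of the switched-on genes shown exceeds 3 FPKM, whereas FGF13 and CYP3A5 start above 3 FPKM with the scramble shRNA.

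The gene families that PRC2 is best known for silencing were looked at as lists, which do not hold every member of a family. Over HOX genes, other homeobox factors, FOX, SOX, GATA and TBX factors and neural or mesodermal bHLH factors, 279 symbols were in the table and 222 of them were low with the scramble shRNA, 122 being listed at 0 in all 6 values. Of these low genes 0 were switched on, against 0.336% of all symbols low with the scramble shRNA. At that share a list of this size would hold few or none. The highest EZH2 shRNA mean among the 222 was 0.994 FPKM. MEIS3, a homeobox gene that the lists leave out, was switched on but not called, with 0.404, 0.405 and 0.955 FPKM against 1.02, 1.07 and 1.31 FPKM (adjusted p = 0.0965), and was named after its values were seen. Of 114 fitted members 5 rose and 5 fell, 8.77% against 5.73% of all genes fitted. The one low member called higher was ONECUT2, a homeobox factor, at 0.176, 0.184 and 0.264 FPKM against 0.463, 0.4797 and 0.537 FPKM. Of 34 HOX genes, 27 were low, with EZH2 shRNA means of at most 0.658 FPKM; 15 could be fitted, and HOXB9 rose, from 2.67, 3.04 and 3.23 FPKM to 3.71, 4.22 and 4.52 FPKM. SOX9 and SOX12, SRY-related factors, and FOXN3 rose too, SOX9 with 37.03, 41.8 and 43.5 FPKM against 54.3, 56.3 and 60.5 FPKM. Falls came from PAX8, at 7.304, 7.97 and 8.27 FPKM against 4.42, 4.703 and 4.76 FPKM, FOXP4, at 31.5, 37.1 and 37.3 FPKM against 19.8, 20.98 and 24.02 FPKM, and the neighbouring homeobox genes IRX3 and IRX5, with log2 fold changes of -0.67 and -0.59. The fifth fall was that of GATA3, named here after its value was seen. Among 10 fitted bHLH factors limma called 0, and 0 had an unadjusted p below 0.05. The calls of PAX8 and FOXP4 held in every setting that fitted the gene, and those of the other genes with values given here were each lost in at least 1.

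Lists of tissue-restricted genes of other kinds were counted in the same way. Of 486 channels, neurotransmitter receptors, synaptic genes, neuropeptides and clustered protocadherins, 400 were low with the scramble shRNA. Of these 400, 0 were switched on, against 0.336% of all symbols low with the scramble shRNA. In the mirror direction 1 member was switched off. Outside these lists the synaptic genes SYNDIG1, given above, and RAB3A were switched on; RAB3A, named after its values were seen, was not called, with 0.478, 0.764 and 0.915 FPKM against 1.005, 1.08 and 1.28 FPKM. Of 182 fitted, 7 rose and 6 fell, 7.14% against 5.73% of all genes fitted. L1CAM, a neural adhesion molecule also found on invasive carcinoma cells, rose the most of those named, with 13.6, 15.8 and 16.1 FPKM against 27.6, 29.7 and 34.9 FPKM (log2 fold change 0.97, SE 0.11, adjusted p = 0.000516). GABBR1, a GABA-B receptor subunit, had 2.35, 2.73 and 2.78 FPKM against 4.49, 4.72 and 4.99 FPKM, and CNTNAP1 and CNTN1, partners at axon and glia contacts, had 2.15, 2.29 and 2.88 FPKM against 3.95, 4.09 and 5.23 FPKM for CNTNAP1. The CNTN1 values were 0.294, 0.359 and 0.591 FPKM against 0.779, 0.951 and 1.001 FPKM. The potassium channel gene KCNN3 fell, with 2.68, 2.74 and 2.93 FPKM against 1.19, 1.29 and 1.5996 FPKM. Of 137 germ line and cancer-testis genes, 125 were low with the scramble shRNA. Of these 125, 0 were switched on, again against 0.336% of all low symbols. Of 28 fitted, 0 rose and 3 fell, 10.7% against 5.73% of all genes fitted (1 and 4 at an unadjusted p below 0.05 by limma). The 3 were MAGEC1, MAGEB2 and MAGEC2, members of a family with similar sequences, between which short reads may be split; MAGEB2 had 11.4, 12.4 and 14.2 FPKM against 7.78, 8.63 and 9.53 FPKM. Of 395 olfactory and taste receptors 328 were listed at 0 in all 6 values, and of 18 fitted limma called 0 (0 higher and 2 lower at an unadjusted p below 0.05). The calls of L1CAM, GABBR1 and KCNN3 held in every setting that fitted the gene, and those of the other genes with values given here were each lost in at least 1.

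The chromatin machinery around EZH2 gave few calls. Of 13 PRC2 subunits EZH2 was the one called. The lists of PRC1 subunits (21 fitted), H3K27 demethylases and acetyltransferases (4), SWI/SNF subunits (20) and histone deacetylases and sirtuins (18) had 0 calls by limma, with 1 and 1, 0 and 0, 1 and 1, and 1 and 1 members higher and lower at an unadjusted p below 0.05. TET3, a 5-methylcytosine dioxygenase, rose, with 3.52, 3.65 and 4.02 FPKM against 4.65, 4.78 and 5.45 FPKM. Of 34 fitted genes that earlier cancer studies describe as EZH2-repressed, 2 rose and 5 fell, 20.6% against 5.73% of all genes fitted. The rises were those of CCND2 and of the cell cycle inhibitor CDKN1A, at 49.9, 50.2 and 57.002 FPKM against 75.4, 86.5 and 92.7 FPKM. MMP2, TIMP3, an inhibitor of metalloproteinases, at 115.8, 124 and 125 FPKM against 74.7, 79.4 and 80.2 FPKM, and NOV, a matricellular protein, at 6.35, 6.74 and 7.48 FPKM against 3.74, 4.55 and 4.75 FPKM, were among the falls, with CDKN1C, another cell cycle inhibitor, and GATA3. That list was drawn from general knowledge of earlier reports, and its median log2 fold change was -0.02, near the -0.01 of all genes fitted. The calls of CDKN1A and TIMP3 held in every setting that fitted the gene, and those of the other genes with values given here were each lost in at least 1.

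All 15 called members of the list of interferon-stimulated genes fell. Cells induce them through transcription factors that bind an interferon-stimulated response element (ISRE), and their products restrict viruses and sense foreign RNA. Of 48 fitted members 0 rose and 15 fell by limma (0 and 30 at an unadjusted p below 0.05), 31.2% against 5.73% of all genes fitted. There 47 of 48 fold changes were negative against 52.6% of all genes fitted, and the median was -0.31. IFIT3 and IFIT1, which encode interferon-induced RNA-binding proteins, stood at 91.6, 93.96 and 98.2 FPKM with the scramble shRNA and 56.5, 58.8 and 60.1 FPKM with the EZH2 shRNA, and at 28.1, 29.8 and 34.7 against 17.8, 18.1 and 22.05 FPKM. BST2, tetherin, which holds budding virus at the cell surface, had 28.96, 28.99 and 36.7 FPKM against 10.3, 11.7 and 12.97 FPKM. UBE2L6, the conjugating enzyme of ISG15, had 27.9, 30.7 and 30.9 FPKM against 17.4, 19.4 and 19.5 FPKM. The groups did not overlap for any of these genes. EIF2AK2, the interferon-induced kinase PKR, which the list leaves out and whose promoter holds an ISRE match, rose, with 9.69, 10.2 and 11.7 FPKM against 13.3, 13.9 and 15.9 FPKM (adjusted p = 0.04295). With the 6 values of the compared groups alone 3 rather than 15 members were called lower, and with 1 scramble value left out as few as 6. MHC class I genes are also induced by interferon: of 19 fitted members 0 rose and 2 fell, 10.5% called (0 and 9 at an unadjusted p below 0.05), with a median log2 fold change of -0.24. B2M, the class I light chain, had 941, 1101 and 1133 FPKM against 729, 779 and 864 FPKM, and HLA-B, whose reads are shared with other class I genes, 253, 278 and 302 FPKM against 125, 169 and 188 FPKM. Among MHC class II genes limma called 0 of 8 (0 higher and 1 lower at an unadjusted p below 0.05). The calls of IFIT3, BST2 and UBE2L6 held in every setting that fitted the gene, and those of the other genes with values given here were each lost in at least 1.

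The promoters of genes of this group were read from RefSeq (GRCh38.p14), as 250 bases before to 50 bases after each start. The ISRE was searched, on both strands, as 2 copies of GAAA separated by any 2 bases. It was present in 3.57% of 35116 RefSeq promoters, in 69.2% of the 13 interferon-stimulated genes called lower that had a promoter entry (9 genes), and in 64.9% of all fitted members of the list with an entry. Outside that list, 6.34% of genes called lower held it, and 3.21% of genes called higher. Counted by gene rather than by promoter, 4.06% of the fitted genes with an entry held it. The bases before the start are shown for IFIT3, IFIT1 and BST2, as members with large falls, with the ISRE matches in capitals (for IFIT3 and IFIT1 these match the other strand, and in BST2 2 matches overlap). The promoter of CXCL8 is shown for contrast as a gene that rose, with its match to the AP-1 site TGANTCA, searched on both strands, in capitals. The AP-1 site was present in 7.71% of RefSeq promoters. By gene it was present in 7.52% of genes fitted, 11.7% of genes called higher and 11.8% of genes called lower, each among those with an entry. Within the bases shown, CXCL8 alone of the 4 genes held an AP-1 match, and CXCL8 held no ISRE match. A match describes letters and does not show binding. These 4 genes were chosen after their values were seen.
IFIT3, chr10:89327747-89327996, plus strand: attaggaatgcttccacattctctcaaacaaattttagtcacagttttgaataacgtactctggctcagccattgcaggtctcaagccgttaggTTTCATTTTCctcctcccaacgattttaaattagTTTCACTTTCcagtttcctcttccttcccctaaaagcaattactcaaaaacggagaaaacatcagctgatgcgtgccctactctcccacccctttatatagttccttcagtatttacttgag
IFIT1, chr10:89392373-89392622, plus strand: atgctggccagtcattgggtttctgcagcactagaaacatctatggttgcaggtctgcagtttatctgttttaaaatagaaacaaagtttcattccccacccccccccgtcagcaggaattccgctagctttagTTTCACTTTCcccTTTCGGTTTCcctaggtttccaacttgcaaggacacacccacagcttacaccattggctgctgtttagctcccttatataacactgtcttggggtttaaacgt
BST2, chr19:17405631-17405880, minus strand: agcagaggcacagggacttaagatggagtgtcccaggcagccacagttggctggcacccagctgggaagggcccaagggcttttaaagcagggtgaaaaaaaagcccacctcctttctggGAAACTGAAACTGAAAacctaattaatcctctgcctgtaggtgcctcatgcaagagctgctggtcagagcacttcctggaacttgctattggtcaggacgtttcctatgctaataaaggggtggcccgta
CXCL8, chr4:73740319-73740568, plus strand: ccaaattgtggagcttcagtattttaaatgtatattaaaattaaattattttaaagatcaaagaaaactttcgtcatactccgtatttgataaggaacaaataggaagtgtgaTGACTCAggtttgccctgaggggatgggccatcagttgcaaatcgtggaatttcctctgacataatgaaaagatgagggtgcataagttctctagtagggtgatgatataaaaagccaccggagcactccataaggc

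Inflammatory signalling genes split in both directions. Of 16 fitted chemokines CXCL8 was the one called (6.25%, near the 5.73% of all genes fitted). Among interleukins and colony-stimulating factors, IL1B, an inflammatory cytokine, and IL11, a cytokine of the IL-6 family, rose, with 425, 438 and 441 FPKM against 508, 668 and 686 FPKM for IL1B and 292, 305 and 318 FPKM against 339, 385 and 401 FPKM for IL11, whereas CSF1, the macrophage growth factor, fell, with 37.6, 42.8 and 46.7 FPKM against 18.1, 20.2 and 21.5 FPKM (log2 fold change -1.05, SE 0.12, adjusted p = 0.000517). The CSF1 ranges were far apart. In the TNF superfamily, of 37 fitted members 3 rose and 5 fell, 21.6% called, with a median log2 fold change of -0.08. TNFSF15 rose, and TNFSF9, the ligand of 4-1BB, and TNFRSF11B, the decoy receptor osteoprotegerin, fell, with 10.3, 11.8 and 12.1 FPKM against 5.27, 6.49 and 6.51 FPKM for TNFSF9. The TNFRSF11B values were 13.2, 13.4 and 14.3 FPKM against 7.27, 7.74 and 9.59 FPKM. TNFRSF9, the receptor 4-1BB itself, rose from a low level, with 0.451, 0.493 and 0.533 FPKM against 0.922, 0.949 and 1.07 FPKM. In the NF-kB list TNFAIP3 and ICAM1, an adhesion molecule for leukocytes, rose, at 7.82, 8.16 and 8.34 FPKM against 17.3, 17.7 and 18.9 FPKM for TNFAIP3 and 37.1, 39.1 and 40.9 FPKM against 66.5, 68.5 and 72.4 FPKM for ICAM1, while TNIP3 and MAP3K14, the kinase NIK, fell, at 2.197, 2.24 and 2.95 FPKM against 1.29, 1.34 and 1.501 FPKM for TNIP3. The MAP3K14 values were 17.6, 18.9 and 20.1 FPKM against 10.8, 12.03 and 14.4 FPKM. In the complement and acute-phase list, of 20 fitted members 0 rose and 4 fell, 20% called (2 and 5 at an unadjusted p below 0.05), with a median log2 fold change of -0.12. SAA1 and LCN2 were among the falls, with SERPINA1, alpha-1 antitrypsin, at 11.5, 11.9 and 11.996 FPKM against 7.95, 9.08 and 9.48 FPKM. The inflammasome sensor NLRP2 fell, with 2.78, 2.78 and 2.91 FPKM against 1.14, 1.199 and 1.34 FPKM, as did the Toll-like receptor TLR2, with 1.71, 1.76 and 1.88 FPKM against 0.714, 0.929 and 1.09 FPKM. IRAK2 and MAVS, adaptors of Toll-like and RNA-sensing receptors, rose, with log2 fold changes of 0.43 and 0.38. The prostaglandin synthesis genes PTGS2 (cyclooxygenase-2) and PTGES rose together, with 13.8, 17.2 and 17.5 FPKM against 25.9, 30.1 and 41.5 FPKM for PTGS2. The PTGES values were 162, 165 and 182 FPKM against 219, 235 and 240.1 FPKM. The calls of CSF1, TNFSF9, TNFAIP3, ICAM1 and NLRP2 held in every setting that fitted the gene, and those of the other genes with values given here were each lost in at least 1.

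Proteases, inhibitors and matrix genes changed in both directions, and as a share of the fitted members 27.8% of matrix metalloproteinases and inhibitors and 24% of collagens were called, against 5.73% of all genes fitted. Of 18 fitted matrix metalloproteinases and inhibitors 3 rose, MMP1, MMP3 and the gelatinase gene MMP9, the last being outside the rule for named genes, and MMP2 and TIMP3 fell. For serine proteases and plasminogen activators, of 37 fitted members 5 rose and 0 fell, 13.5% called (8 and 1 at an unadjusted p below 0.05), with a median log2 fold change of 0.00. F3, tissue factor, which starts coagulation, had 77.4, 82.04 and 84.7 FPKM against 120.3, 123.1 and 134 FPKM, and PLAT, tissue plasminogen activator, 14.05, 15.1 and 15.9 FPKM against 19.4, 20.5 and 20.7 FPKM; HTRA1 and TMPRSS15 are given above. SERPINB2, an inhibitor of plasminogen activators, rose as well, with 19.8, 19.97 and 22.9 FPKM against 35.5, 44.2 and 46.3 FPKM. ADAMTS9, a secreted proteoglycan protease, rose, with 3.65, 4.15 and 4.18 FPKM against 6.52, 6.82 and 7.33 FPKM, and ADAM8, a membrane protease, fell, with 133, 167 and 171 FPKM against 82.5, 104 and 109.9 FPKM. Of 25 fitted collagens 4 rose and 2 fell. COL4A5 and COL4A6, basement membrane chains encoded side by side, had 5.23, 5.51 and 5.95 FPKM against 9.34, 9.39 and 9.86 FPKM for COL4A5 and 0.248, 0.392 and 0.443 FPKM against 0.712, 0.722 and 0.813 FPKM for COL4A6, and COL12A1 and COL8A1 had log2 fold changes of 0.47 and 0.40. The integrin genes moved apart: ITGA2, the alpha chain of a collagen receptor, rose, with 24.4, 26.7 and 28.7 FPKM against 36.97, 43.3 and 53.4 FPKM, whereas ITGB4 and the leukocyte integrin chain ITGB2 fell, the latter with 3.22, 4.82 and 4.98 FPKM against 1.28, 1.51 and 1.98 FPKM. Among the desmosome genes, DSP (desmoplakin) rose, with 12.8, 13.2 and 14.01 FPKM against 19.4, 21.3 and 23.6 FPKM, and PPL (periplakin) and JUP (plakoglobin) fell, with 5.43, 6.51 and 6.97 FPKM against 3.101, 3.33 and 3.81 FPKM for PPL. The JUP values were 6.39, 7.68 and 8.13 FPKM against 3.43, 4.36 and 4.56 FPKM. CDH11, a mesenchymal cadherin, was the one cadherin of 7 fitted that was called, lower, with 3.297, 3.67 and 3.704 FPKM against 1.62, 1.63 and 2.05 FPKM. The calls of F3, SERPINB2, ADAMTS9, COL4A5, DSP and CDH11 held in every setting that fitted the gene, and those of the other genes with values given here were each lost in at least 1.

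In developmental signalling, the calls among ligands and antagonists of the TGF-beta superfamily were mostly rises. Of 23 fitted members 5 rose and 1 fell, 26.1% against 5.73% of all genes fitted, and the median log2 fold change was 0.07. NOG (noggin), which binds and blocks BMPs, had 17.6, 18.6 and 22.2 FPKM against 35.7, 37.2 and 38.2 FPKM (log2 fold change 0.90, SE 0.089, adjusted p = 0.000258). INHBA, the activin A chain, had 6.23, 6.93 and 8.59 FPKM against 12.1, 13.7 and 14.05 FPKM. BMP2 had 1.14, 1.24 and 1.39 FPKM against 2.15, 2.74 and 3.32 FPKM. FST, the activin-binding protein follistatin, had 14.4, 15.6 and 15.8 FPKM against 21.3, 22.2 and 27.8 FPKM. BMP4 was the one member called lower. Among response genes, PMEPA1, a feedback inhibitor of TGF-beta signalling, and the receptor gene TGFBR1 rose, with 45.6, 47.4 and 48.7 FPKM against 78.9, 82.7 and 85.01 FPKM for PMEPA1 and 36.5, 42.2 and 47.3 FPKM against 72.2, 72.5 and 90.6 FPKM for TGFBR1, and SMAD6, an inhibitor of BMP signalling, and the co-receptor gene TGFBR3 fell, with 8.33, 8.34 and 9.86 FPKM against 3.68, 4.62 and 4.65 FPKM for SMAD6. The TGFBR3 values were 11.5, 11.9 and 12.6 FPKM against 6.14, 7.502 and 8.03 FPKM. For WNT genes they were mostly falls: of 28 fitted members 1 rose and 6 fell, 25% called, with a median log2 fold change of -0.08. FZD8, a WNT receptor, rose, with 10.3, 10.4 and 10.7 FPKM against 16.02, 18.1 and 18.96 FPKM, whereas the receptor genes FZD7 and LGR6 and the ligand gene WNT10A fell, with 10.3, 10.5 and 11.5 FPKM against 7.56, 7.57 and 7.77 FPKM for FZD7. The LGR6 values were 3.41, 4.04 and 4.23 FPKM against 1.64, 1.73 and 2.28 FPKM. The WNT10A values were 2.63, 2.95 and 4.27 FPKM against 0.938, 1.29 and 1.78 FPKM. With the 6 values of the compared groups alone, 0 of the 6 WNT falls were called. In the Notch list the ligand gene JAG1 and the receptor gene NOTCH3 rose, with 27.9, 27.96 and 28.3 FPKM against 39.2, 40.3 and 41.98 FPKM for JAG1 and 0.978, 1.09 and 1.12 FPKM against 1.797, 1.89 and 2.56 FPKM for NOTCH3, and JAG2 and the glycosyltransferase gene LFNG fell. None of 12 fitted hedgehog pathway genes was called by limma (0 and 0 at an unadjusted p below 0.05). The calls of NOG, PMEPA1, TGFBR1, SMAD6, FZD8 and JAG1 held in every setting that fitted the gene, and those of the other genes with values given here were each lost in at least 1.

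Growth factor signalling genes changed at several levels. EGFR, the epidermal growth factor receptor, rose, with 18.7, 19.7 and 20.6 FPKM against 27.9, 32.7 and 33.4 FPKM. So did its ligand gene TGFA, with 20.6, 23.6 and 24.3 FPKM against 30.4, 31.2 and 35.3 FPKM. Among other ligand genes of the EGF family, not all of them ligands of EGFR, NRG1 and HBEGF fell. The NRG1 values were 14.6, 16.9 and 18.6 FPKM against 11.4, 12.1 and 12.8 FPKM. The HBEGF values were 53.7, 53.98 and 55.2 FPKM against 44.7, 46.7 and 47.2 FPKM. The insulin-type receptor genes IGF1R and INSR rose, with log2 fold changes of 0.38 and 0.45. For genes induced by ERK or encoding dual-specificity phosphatases, of 26 fitted members 5 rose and 2 fell, 26.9% against 5.73% of all genes fitted. Their median log2 fold change was 0.08. DUSP1 and DUSP16, phosphatases that act on MAP kinases, had 61.3, 61.6 and 64.8 FPKM against 92.6, 95.1 and 99.4 FPKM for DUSP1 and 3.74, 3.74 and 3.77 FPKM against 5.89, 6.04 and 6.12 FPKM for DUSP16, whereas the immediate early factor gene EGR1 fell, with 17.1, 18.8 and 19.1 FPKM against 11.1, 11.4 and 12.6 FPKM. The AP-1 subunit gene FOS fell too, with 3.17, 3.23 and 3.62 FPKM against 1.36, 1.97 and 2.04 FPKM, and the nuclear receptor gene NR4A1 rose, with 4.07, 4.09 and 4.198 FPKM against 7.27, 8.79 and 9.74 FPKM. All 3 values of each of these genes lay outside the other group's range. SOCS2 and SOCS3, feedback inhibitors of cytokine receptors, moved in opposite directions, with 1.84, 2.49 and 2.502 FPKM against 4.29, 4.53 and 6.06 FPKM for SOCS2. The SOCS3 values were 16.9, 17.4 and 20.6 FPKM against 9.64, 10.7 and 12.3 FPKM. The calls of EGFR, DUSP1, DUSP16, EGR1 and NR4A1 held in every setting that fitted the gene, and those of the other genes with values given here were each lost in at least 1.

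Among axon guidance genes, which steer axons and also cell migration, of 56 fitted members 5 rose and 0 fell, 8.93% called (17 and 4 at an unadjusted p below 0.05), with a median log2 fold change of 0.11. That share called is fairly near the 5.73% of all genes fitted. SEMA3A, a secreted repellent semaphorin, had 3.54, 3.57 and 4.07 FPKM against 6.88, 7.27 and 9.16 FPKM (log2 fold change 0.88, SE 0.14, adjusted p = 0.004197). RGMB, a BMP co-receptor of the repulsive guidance family, had 13.8, 14.8 and 15.6 FPKM against 20.7, 21.3 and 22.9 FPKM. SEMA3E and EPHA7 rose from low levels, with 0.173, 0.195 and 0.236 FPKM against 0.521, 0.533 and 0.818 FPKM for SEMA3E and 0.0404, 0.179 and 0.193 FPKM against 0.352, 0.511 and 0.83001 FPKM for EPHA7; SEMA3D was the fifth, named after its value was seen. With a filter at a mean of 1 FPKM 2 of the 5 were called, and with the 6 values alone also 2. The calls of SEMA3A and RGMB held in every setting that fitted the gene, and those of the other genes with values given here were each lost in at least 1.

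**Figure D4:**
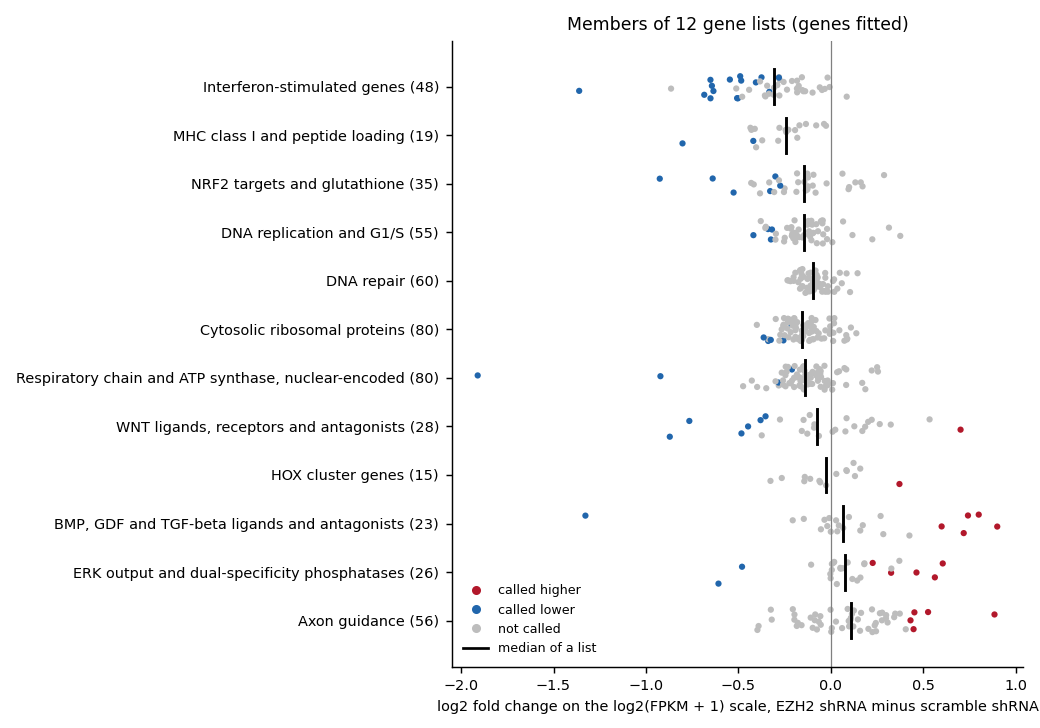
log2 fold change, EZH2 shRNA minus scramble shRNA on the log2(FPKM + 1) scale, of each fitted member of 12 gene lists (number fitted in parentheses); red points were called higher, blue points lower, grey points not called, and black ticks mark each list's median. Interferon-stimulated genes are shifted to the left, with a median of -0.31, ribosomal and respiratory chain genes less so, and axon guidance genes slightly to the right, with a median of 0.11.

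Called members of the NRF2 and aldehyde dehydrogenase lists fell. For NRF2 targets and glutathione genes, of 35 fitted members 0 rose and 6 fell, 17.1% against 5.73% of all genes fitted. At an unadjusted p below 0.05 by limma the counts were 1 and 14, and the median log2 fold change was -0.14. NQO1, a quinone reductase, had 124, 134 and 140.4 FPKM against 64.6, 68.98 and 75.05 FPKM (log2 fold change -0.93, SE 0.089, adjusted p = 0.000211). ABCC3, an exporter of conjugates, had 12.3, 13.2 and 14.5 FPKM against 7.598, 8.36 and 8.63 FPKM, AKR1C3, an aldo-keto reductase with near-identical relatives, 19.1, 19.98 and 20.2 FPKM against 11.3, 13.7 and 15.6 FPKM. PRDX1, a peroxiredoxin, had 448, 454 and 491 FPKM against 373, 379.5 and 398 FPKM. The exporter gene ABCC1 fell as well, with 18.9, 20.8 and 21.2 FPKM against 13.04, 13.96 and 14.1 FPKM. Aldehyde dehydrogenases and aldo-keto reductases had 0 rises and 5 falls of 26 fitted, 19.2% called (3 and 7 at an unadjusted p below 0.05 by limma). The lists share members, since AKR1C3 and AKR1B10, both called lower in the NRF2 list, are aldo-keto reductases. AKR1B10 was below 1 FPKM in all 6 values and was named after its value was seen. ALDH3A2 had 25.03, 25.9 and 28.3 FPKM against 15.3, 18.3 and 19.2 FPKM, beside ALDH3A1. With the 6 values alone 0 of the 5 falls were called. The iron storage genes FTH1 and FTL, both abundant, had 1943, 2049 and 2049 FPKM against 1414, 1611 and 1619 FPKM for FTH1 and 2126, 2367 and 2465 FPKM against 1567, 1659.8 and 1896 FPKM for FTL; both have many processed pseudogenes, so their reads are uncertain. CYP1B1, a cytochrome P450 of the aryl hydrocarbon response, fell, with 25.8, 27.3 and 28.96 FPKM against 10.8, 13.96 and 18.1 FPKM. In retinoid metabolism CYP26B1, which degrades retinoic acid, rose, with 4.26, 4.602 and 4.795 FPKM against 8.66, 8.83 and 8.99 FPKM, and STRA6, a retinol importer, fell, with 5.03, 5.38 and 6.81 FPKM against 1.82, 1.96 and 3.25 FPKM. The calls of NQO1, ABCC3, ABCC1 and CYP26B1 held in every setting that fitted the gene, and those of the other genes with values given here were each lost in at least 1.

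Lipid and amino acid metabolism showed single genes rather than whole lists. SCD, the stearoyl-CoA desaturase, rose, with 10.6, 10.8 and 11.9 FPKM against 17.5, 17.7 and 17.9 FPKM, and GPAM, which starts glycerolipid synthesis, had 5.39, 6.53 and 7.42 FPKM against 8.896, 9.55 and 11.3 FPKM, whereas ACLY, which makes cytosolic acetyl-CoA, fell, with 58.1, 58.3 and 58.5 FPKM against 44.8, 46.9 and 49.999 FPKM. INSIG1, a brake on cholesterol synthesis, and SQLE, squalene epoxidase, fell, with 45.4, 49.01 and 51.1 FPKM against 24.9, 27.7 and 31.6 FPKM for INSIG1 and 4.22, 5.64 and 5.903 FPKM against 2.94, 2.98 and 3.36 FPKM for SQLE. For the cholesterol synthesis and uptake list, of 26 fitted members 0 rose and 2 fell, 7.69% against 5.73% of all genes fitted. At an unadjusted p below 0.05 by limma the counts were 2 and 6, and the median log2 fold change was -0.08. The amino acid transporter gene SLC1A4 rose beside GLUL, with 1.49, 1.59 and 1.71 FPKM against 2.502, 2.61 and 2.78 FPKM, and GOT2, a mitochondrial aminotransferase, fell, with 69.5, 77.05 and 79.3 FPKM against 57.1, 57.7 and 58.1 FPKM. The calls of SCD and INSIG1 held in every setting that fitted the gene, and those of the other genes with values given here were each lost in at least 1.

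Lists of genes for growth and division had medians slightly below 0 and, apart from CDK inhibitors, D-type cyclins and CDKs, few calls. The share called was 7.27% for DNA replication and G1/S, 6.25% for cytosolic ribosomal protein and 5.0% for respiratory chain genes. It was 1.59% for mitosis genes and 0% for DNA repair genes, against 5.73% of all genes fitted. For the 15 fitted CDK inhibitors, D-type cyclins and CDKs it was 26.7%. DNA replication and G1/S genes had 0 rises and 4 falls of 55 fitted by limma (2 and 19 at an unadjusted p below 0.05), a median of -0.14, and 49 of 55 negative fold changes. MCM4 and MCM3, subunits of the replicative helicase, had 71.8, 74.3 and 75.8 FPKM against 54.6, 55.2 and 55.4 FPKM for MCM4 and 116.2, 121 and 124 FPKM against 90.8, 95.7 and 97.998 FPKM for MCM3. ORC6, of the origin recognition complex, had 25.2, 26.5 and 28.3 FPKM against 20.6, 21.2 and 21.7 FPKM. DNA repair genes had 0 calls of 60 (0 and 5 at an unadjusted p below 0.05) and a median of -0.09. Of 63 mitosis genes PTTG1 (securin) was the one called, lower, with 223, 231 and 245 FPKM against 185, 193 and 210.0 FPKM. Among cell cycle regulators CCND2, CDKN1A and CDK6, a partner kinase of D-type cyclins, rose, CDK6 with 15.05, 17.6 and 20.4 FPKM against 24.8, 25.7 and 32.1 FPKM, and CDKN1C fell, with 2.12, 2.38 and 2.94 FPKM against 1.34, 1.38 and 1.77 FPKM. Cytosolic ribosomal protein genes had a median of -0.16 and 69 of 80 negative fold changes; 0 rose and 5 fell by limma (0 and 30 at an unadjusted p below 0.05), among them RPL30, with 928, 949.7 and 982 FPKM against 651, 789.6 and 789.9 FPKM. Reads of these genes can come from processed pseudogenes. Nuclear-encoded respiratory chain genes had a median of -0.14, with 0 rises and 4 falls of 80 (1 and 23 at an unadjusted p below 0.05); NDUFB9, of complex I, fell the most after COX7B2, with 51.2, 55.95 and 64.1 FPKM against 27.7, 28.7 and 32.4 FPKM. Over all genes fitted the median was -0.02 between 10 and 100 FPKM and -0.10 at 100 FPKM or more, and the part of expression level in the medians of these lists was not tested. With 1 scramble value left out as few as 0 ribosomal protein genes were called, and with the 6 values alone 0. The calls of MCM4 and NDUFB9 held in every setting that fitted the gene, and those of the other genes with values given here were each lost in at least 1.

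**Figure D5:**
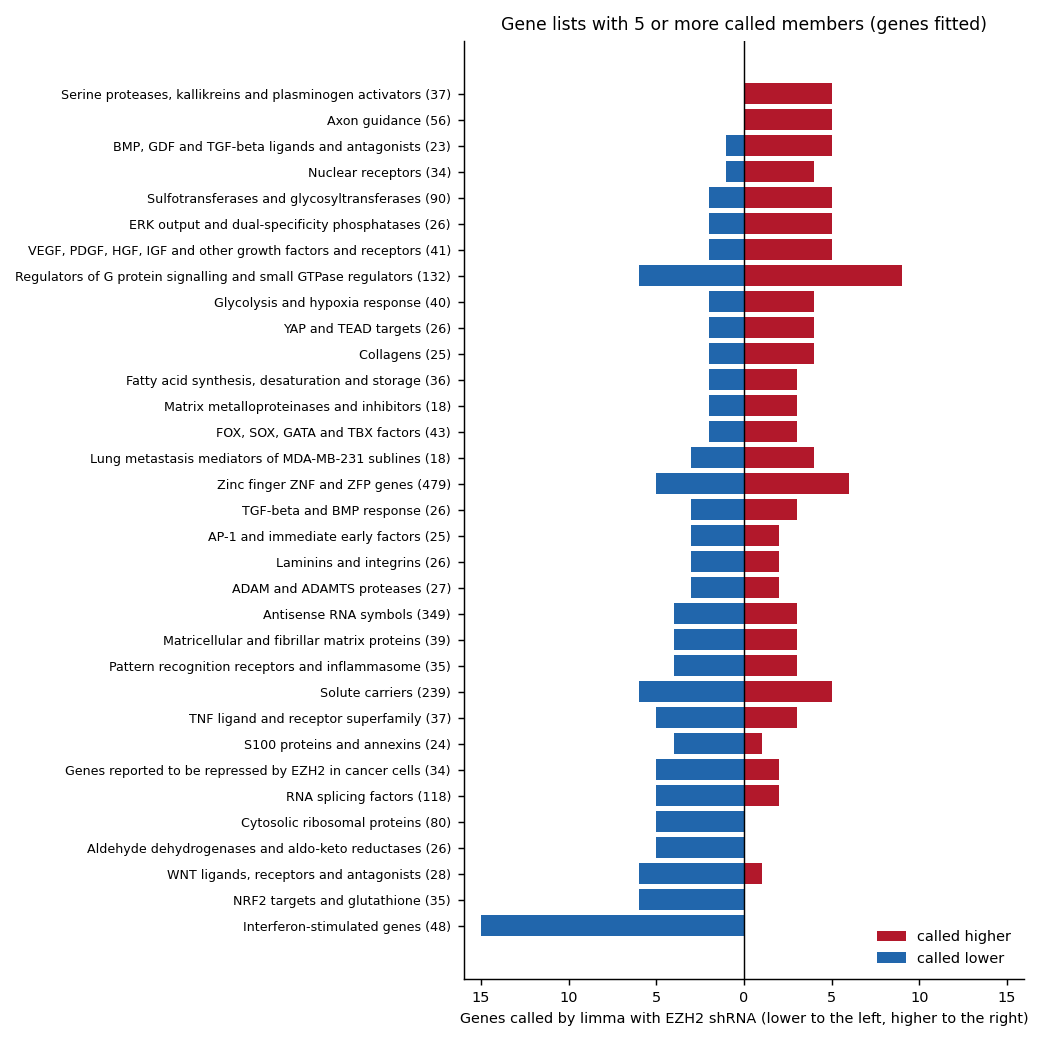
Number of genes called higher (red, to the right) and lower (blue, to the left) with the EZH2 shRNA in each gene list with 5 or more called members, with the number of fitted members in parentheses. The interferon list has 15 genes to the left and 0 to the right, the serine protease and axon guidance lists have 5 to the right and 0 to the left, and many lists have bars on both sides.

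Over 100 lists, 99 had fitted members; 11 had no call, 12 had rises alone, 24 falls alone and 52 both. The lists differ in size and overlap in members. Counts of all calls rested on the shared estimate of spread from 4 groups: with the 6 values of the compared groups alone, 161 genes were called, 85 higher and 76 lower, against 462 to 491 with 1 scramble value left out and 604 to 642 with 1 EZH2 shRNA value left out.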

How the data were processed

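RNA-seq of LM2 cells covered 4 groups of 3 libraries, of which the EZH2 shRNA and scramble shRNA groups are compared. The authors deposited FPKM for 26006 rows in a single table. Per the submitters' processing notes, reads went through TopHat2 2.1.1 and SAMtools, and through Cufflinks and Cuffdiff, both 2.2.1, on hg19. No source used here gives options, annotation, strand setting or depth, so antisense pairs and near-identical genes may share reads. In every row with 3 different values (15773 scramble, 15751 EZH2 shRNA) the values stood in text order, so no value was traced to a library and replicate numbers pair nothing. The number of values, 3 per group, limits the precision.

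For 442 symbols with several rows, the row of highest mean stood for the symbol. limma 3.58.1 (R 4.3.3) was run on log2(FPKM + 1) with a mean for each of the 4 groups (8 residual degrees of freedom) and trend estimation, on the 14709 symbols whose 12 values averaged 0.1 FPKM or more. A call needed a two-sided Benjamini-Hochberg adjusted p below 0.05 over all of them. Fold changes on this scale understate those of low genes. Lists are given as counts and medians, with no set test. Named genes were EZH2, the 15 largest non-overlapping rises and falls, the 15 largest called gains and losses among genes switched on and off (small RNA and LOC symbols left out), the 15 low genes called higher with the smallest adjusted p, and up to 4 called members per list by adjusted p. Any other gene was named after its value was seen, and a few genes are not reported here. The members, lists and tests were chosen with earlier results of these data known. The alternatives tried changed the pseudocount (0.1), the filter (none, or 1 FPKM), the samples fitted (6 values alone, or 1 value left out after a seeded random order within each gene), the trend, the scaling, the symbols kept, the fold minimum and the on and off thresholds (0.5 and 2 FPKM). The steps were tested on simulated data.

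Promoters came from a RefSeq table (GRCh38.p14) with an entry for 65.8% of symbols. A planned comparison of promoter CpG content is void because 71.6% of genes called lower had an entry, under the 80% required, and the motif shares have the same gap. Plots used matplotlib 3.10.9 (Python 3.11.15).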

Additional observations from a re-analysis of the deposited data

How the results depend on the processing

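EZH2 kept its call and direction in every setting, with log2 fold changes from -1.10 to -1.04. The count of called genes was 843 and ran from 765 to 847 over the settings of pseudocount, filter, trend, scaling, small RNA symbols and repeated rows. It was 161 with the 6 values of the compared groups alone (85 higher and 76 lower), 41 with a 2-fold minimum, and 462 to 642 with 1 value left out (240 to 322 higher, 222 to 324 lower). Low genes called higher numbered 53: 11 with a filter at 1 FPKM, 14 with the 6 values alone and 25 to 42 with 1 value left out; of genes low with the EZH2 shRNA 71 were called lower: 11, 18 and 47 to 56. Without a filter these counts were 77 and 102. Of the genes switched on 19 of 42 were also called; with a threshold of 0.5 FPKM 31 were switched on and 26 rather than 40 switched off. Fewer genes were tested under the 1 FPKM filter and fewer values entered the fits with 6 values or 1 left out; for the other settings the cause was not tested. Of 278 named genes besides EZH2, 91 kept their call in every setting that fitted them, 134 lost it only with the 6 values alone or 1 value left out, 53 lost it in another setting, and 0 reversed. With the 6 values alone, calls in gene lists went from 15 to 3 for interferon-stimulated genes, 6 to 0 for WNT genes, 6 to 2 for NRF2 targets, 5 to 0 for ribosomal proteins and for aldehyde dehydrogenases with aldo-keto reductases, 5 to 2 for axon guidance, BMP and ERK genes, 5 to 3 for serine proteases, 4 to 1 for replication genes, 4 to 2 for respiratory chain genes, 4 to 3 for complement and acute-phase genes and 3 to 1 for cancer-testis antigens. Group scaling factors were 1.001 and 0.9963, so scaling moved fold changes little. No paired analysis was possible because the columns, sorted within each gene, carry no replicate. Depth is unknown, so no limit of detection can be given for values at 0.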

Other observations

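Further groups held changes of some members. The share called was 15% for the hypoxia and glycolysis list, 14.7% for nuclear receptors and 11.4% for regulators of G proteins and small GTPases. For genes of glycosylation and sulfation it was 7.78%, fairly near the 5.73% of all genes fitted. In the hypoxia and glycolysis list 4 of 40 fitted members rose and 2 fell: EPAS1, the hypoxia-inducible factor HIF-2 alpha, had 26.01, 27.1 and 28.2 FPKM against 38.3, 42.2 and 43.6 FPKM, and CA9 and CA12, carbonic anhydrases at the cell surface, 20.6, 23.5 and 25.4 FPKM against 33.7, 41.4 and 43.7 FPKM for CA9 and 8.99, 9.05 and 9.67 FPKM against 11.4, 11.8 and 12.8 FPKM for CA12, whereas the aldolase gene ALDOC fell, with 13.6, 15.1 and 15.7 FPKM against 6.36, 8.24 and 8.78 FPKM. Among nuclear receptors 4 of 34 rose and 1 fell (median 0.12): besides NR4A1 and RORB, RORA, a retinoid-related orphan receptor, had 1.56, 1.88 and 2.19 FPKM against 2.67, 3.26 and 4.35 FPKM. Of 132 fitted regulators of G proteins and small GTPases 9 rose and 6 fell, with RGS4 at 0.791, 0.845 and 1.19 FPKM against 1.71, 2.24 and 2.36 FPKM and ARHGAP29 at 13.7, 13.8 and 17.01 FPKM against 24.96, 25.2 and 32.1 FPKM among the rises and DOCK2, a RAC activator of blood cells, at 1.68, 1.69 and 1.89 FPKM against 0.601, 0.741 and 1.02 FPKM among the falls. CELF2, an RNA-binding splicing regulator, rose, with 4.77, 5.53 and 6.63 FPKM against 10.96, 11.3 and 12.1 FPKM. Of genes for glycosylation and sulfation 5 of 90 rose and 2 fell, with FUT11, a fucosyltransferase, at 22.6, 22.7 and 23.7 FPKM against 32.01, 32.1 and 35.4 FPKM. The calls of EPAS1, ALDOC, CELF2 and FUT11 held in every setting that fitted the gene, and those of the other genes with values given here were each lost in at least 1.

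Few long non-coding RNA genes were called. Of 756 fitted long non-coding RNA genes by RefSeq type 10 rose and 9 fell (2.51%), against 6.24% of 12817 protein-coding genes, a difference that was not tested. LINC00657 rose, with 60.7, 64.1 and 75.9 FPKM against 104, 110.2 and 127 FPKM. PAX8-AS1 fell, with 19.6, 20.1 and 20.4 FPKM against 13.7, 14.7 and 14.9 FPKM, beside PAX8, and ITGB2-AS1, with 1.04, 1.14 and 1.55 FPKM against 0.351, 0.4904 and 0.567 FPKM, beside ITGB2; without a stated strand setting, reads of a gene and its antisense partner cannot be told apart. The call of LINC00657 held in every setting that fitted the gene, and those of the other genes with values given here were each lost in at least 1.

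Some called genes lay side by side. Protein-coding fitted genes were ordered as in RefSeq (GRCh38.p14), a description added after the values were seen. Of 12793 neighbouring pairs 83 had both genes called, 31 both higher, 34 both lower and 18 in opposite directions. With 800 of the 12817 ordered genes called (6.24%), some pairs of called neighbours would arise in any order. How many was not worked out, so whether called genes cluster was not tested. SEMA3E, SEMA3A and SEMA3D rose together, as did TACC2, PLEKHA1, HTRA1 and DMBT1, the collagenase and stromelysin genes MMP1 and MMP3, and COL4A5 and COL4A6. IFIT2, IFIT3 and IFIT1 fell together, as did IRX3, IRX5 and MMP2, ALDH3A2 and ALDH3A1, and the cancer-testis genes MAGEC1 and MAGEC2. Several of these neighbours are copies of an ancestral gene, and reads shared between copies were not examined.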
